A study of Mus musculus with 3 samples.

Results

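RNA-seq values were examined for 29 genes of B cells and plasma cells in macrophages sorted from mouse colon. The genes were chosen by name, as markers of the B lineage, but with earlier results of these data known. Every one of them was found among the 23997 gene rows of the deposited tables. They were divided by the stage at which they are best known, into 18 B cell genes, 6 plasma cell genes and 5 genes used at both stages. The sort kept CD64-positive cells with little Ly6C and no Siglec-F, from male C57BL/6 mice for which the labels name no treatment, and whose age is given as 9 weeks in the extraction protocol and as 8.9 weeks elsewhere. Tle4cKO mice carried floxed Tle4 and Tle3cKO mice carried floxed Tle3, each with Lyz2-Cre, while the control mice, called WT, carried Lyz2-Cre alone. Lyz2-Cre drives recombination in myeloid cells, so B lineage cells are not its main target. Cells of 4 Tle4cKO, 3 Tle3cKO and 4 WT mice were pooled by genotype, which left 1 library per genotype, and no value below has a replicate spread, a standard error or a p-value.

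B cells recognise antigen through a surface immunoglobulin that signals through the paired chains CD79A and CD79B. After activation they can become plasma cells, which switch off much of the B cell programme under the control of Blimp-1, expand the endoplasmic reticulum and secrete antibody. In the colon most plasma cells lie in the lamina propria and release IgA joined into dimers by the J chain, while B cells are gathered mainly in isolated lymphoid follicles. Both cell types are neighbours of the macrophages that were sorted and are not themselves marked by CD64.

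The sort was checked against macrophage genes. Fcgr1, which encodes CD64, was at 39.2 FPKM (a fragment count divided by transcript length and library size) in Tle4cKO, 36.0 in the library labelled Tle3cKO and 33.3 in WT. The 12 genes of the macrophage list summed to 4834, 4640 and 5190 FPKM in the same order, and the 18 B cell genes to 269.9, 266 and 231 FPKM. Of the targeted genes, Tle4 was at 5.80 FPKM in Tle4cKO, 11.0 in the library labelled Tle3cKO and 8.50 in WT. Tle3 was at 46.9 FPKM in Tle4cKO, 70.7 in the library labelled Tle3cKO and 38.6 in WT. Because Tle3 was highest where it should have been deleted, that library is called by its label only, and the direction of each comparison that uses it depends on a label its own gene does not bear out. The values are summed over whole genes, so a loss of some exons would not be seen. Steps between the lowest values put the depth, in 1e6 fragments, at about 21.2 in Tle4cKO, 16.4 in the library labelled Tle3cKO and 17.1 in WT.

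Promoters of the genes were read from the RefSeq table for build GRCm38.p6, which holds 250 bases before and 50 after an annotated start site. It had 23 of the 29 genes. In all, 4 motifs known from B lineage or secretory genes were searched on both strands: the octamer ATGCAAAT bound by POU factors, the EBF1 motif TCCC and GGGA with 2 bases between, the endoplasmic reticulum stress element CCAAT and CCACG with 9 bases between, and the unfolded protein response element TGACGTGG. The last pair share the letters CCACG on one strand or the other. The promoters of 5 genes are shown, 4 because they hold a motif, which is in capitals, and that of Igj because this gene had the largest difference of the group. In the Igj promoter no motif was found and the capitals mark the 50 bases from the start site on. The windows are chr5:88527848-88528147 (minus strand) for Igj, chr10:75893148-75893447 (plus strand) for Derl3, chr9:51213440-51213739 (plus strand) for Pou2af1, chr10:75948050-75948349 (plus strand) for Vpreb3 and chr7:30878979-30879278 (minus strand) for Cd22, each printed 5′ to 3′ along its gene.
Igj: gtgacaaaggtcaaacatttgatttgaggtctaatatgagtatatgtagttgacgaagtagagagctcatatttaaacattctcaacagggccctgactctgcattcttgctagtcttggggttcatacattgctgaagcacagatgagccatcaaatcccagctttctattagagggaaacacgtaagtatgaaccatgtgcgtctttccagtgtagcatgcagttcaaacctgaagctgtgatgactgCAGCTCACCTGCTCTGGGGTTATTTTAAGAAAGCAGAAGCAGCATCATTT
Derl3: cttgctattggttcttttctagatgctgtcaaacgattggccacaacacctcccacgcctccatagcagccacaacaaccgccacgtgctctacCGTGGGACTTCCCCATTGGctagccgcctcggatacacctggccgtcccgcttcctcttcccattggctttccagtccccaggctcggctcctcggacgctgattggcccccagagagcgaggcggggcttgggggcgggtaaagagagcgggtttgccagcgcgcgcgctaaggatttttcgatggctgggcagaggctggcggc
Pou2af1: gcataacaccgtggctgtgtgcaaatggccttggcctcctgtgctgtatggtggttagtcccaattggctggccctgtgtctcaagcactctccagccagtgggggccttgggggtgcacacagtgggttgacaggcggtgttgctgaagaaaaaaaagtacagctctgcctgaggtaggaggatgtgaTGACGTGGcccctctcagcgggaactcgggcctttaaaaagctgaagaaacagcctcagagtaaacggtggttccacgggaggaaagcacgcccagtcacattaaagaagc
Vpreb3: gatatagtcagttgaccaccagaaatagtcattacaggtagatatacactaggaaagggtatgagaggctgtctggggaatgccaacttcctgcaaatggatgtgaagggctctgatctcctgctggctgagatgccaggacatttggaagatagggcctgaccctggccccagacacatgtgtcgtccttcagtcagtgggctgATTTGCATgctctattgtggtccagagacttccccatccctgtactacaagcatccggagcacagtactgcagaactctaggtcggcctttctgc
Cd22: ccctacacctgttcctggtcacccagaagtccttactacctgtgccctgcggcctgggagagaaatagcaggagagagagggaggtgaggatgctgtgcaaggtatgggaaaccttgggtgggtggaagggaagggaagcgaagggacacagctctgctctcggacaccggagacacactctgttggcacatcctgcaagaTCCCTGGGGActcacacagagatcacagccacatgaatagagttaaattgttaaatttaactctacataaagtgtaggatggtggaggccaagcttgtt
The stress element of Derl3 begins 156 bases before the start site and lies on the opposite strand. The response element of Pou2af1 begins 61 bases before it, the octamer of Vpreb3 begins 45 bases before it on the opposite strand, and the EBF1 motif of Cd22 begins 49 bases before it. Blnk also had the octamer, 130 bases before its start site. Among all 32851 promoters of the table the stress element was found in 0.119%, the response element in 0.676%, the EBF1 motif in 0.904% and the octamer in 1.74%. These are matches of letters and not binding sites, and no match says only that these letters are not in this window.

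All 29 genes had a value above 0 in each of the 3 libraries. Most were low, with Fcrl5 at 0.495 FPKM in Tle4cKO, 0.692 in the library labelled Tle3cKO and 0.398 in WT, while Igj reached 192 FPKM in Tle4cKO. Log2 ratios are of FPKM plus a pseudocount of 1, which understates the differences of low genes. In Tle4cKO against WT, 27 of the 29 genes were higher, while 49.4% of all 11114 genes averaging 1 FPKM or more were. Their median log2 ratio was 0.50, against -0.0026 for those 11114 genes. In the library labelled Tle3cKO against WT, 27 of 29 were higher too, where 47.6% of all genes were, with a median of 0.39 against -0.011. With libraries scaled to equal sums of the macrophage list, 28 of 29 were higher in each comparison with WT, but so were 70.3% of all genes in Tle4cKO and 78.8% in the library labelled Tle3cKO. Both comparisons use the same WT library, so a low value in it enters both. Between Tle4cKO and the library labelled Tle3cKO, 14 of 29 genes were higher, where 52.4% of all genes were, and the median was -0.0036 against 0.0093.

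**Figure D1:**
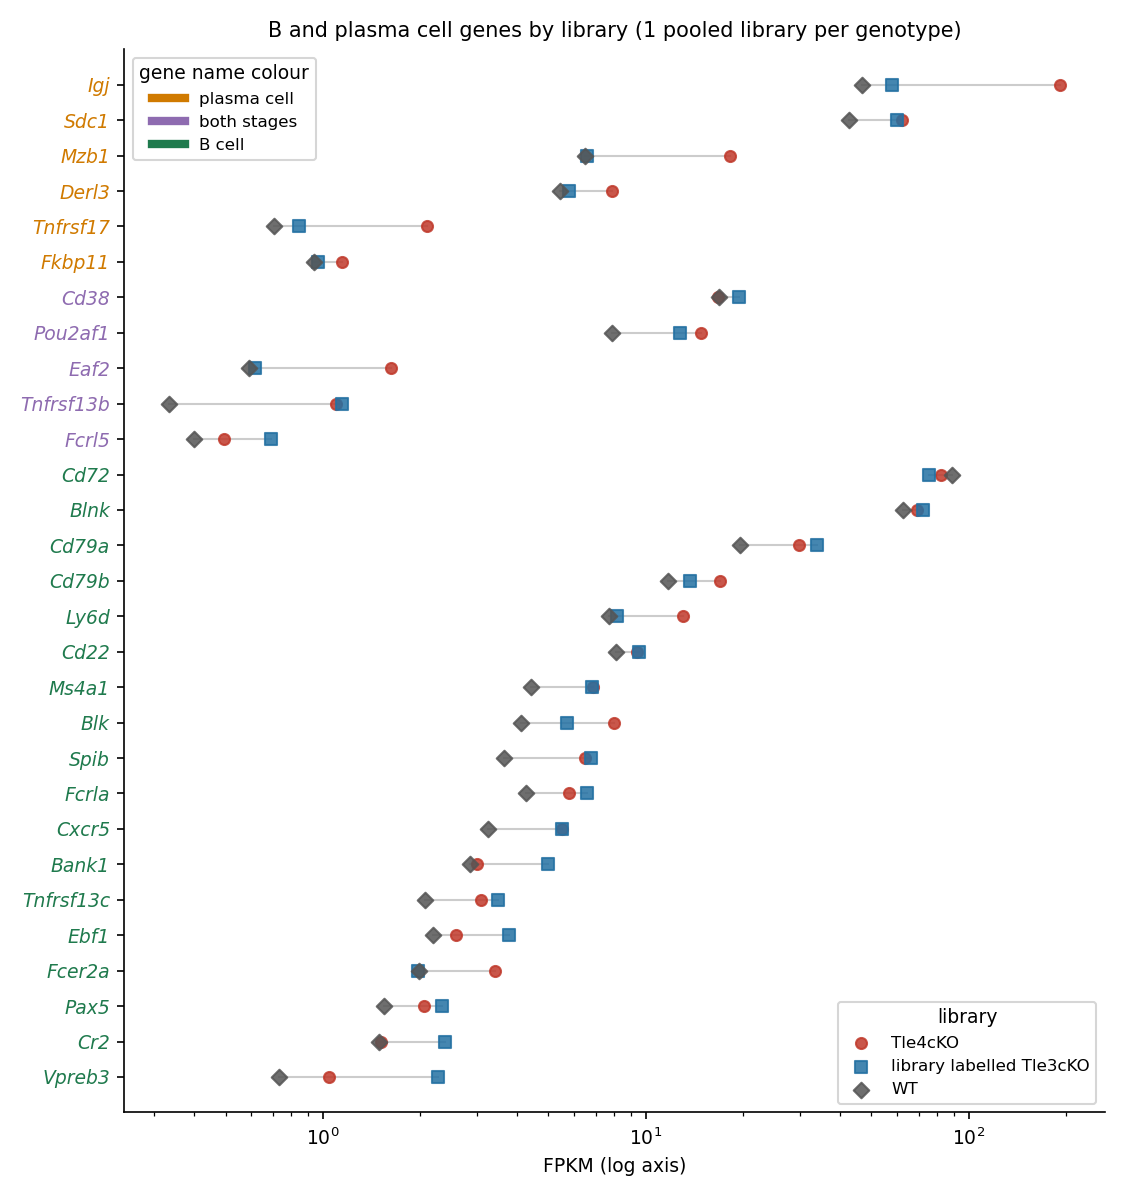
FPKM of the 29 genes on a log axis, with circles for Tle4cKO, squares for the library labelled Tle3cKO and diamonds for WT, and gene names coloured by stage. Igj lies at 192, 57.9 and 46.9 FPKM, and Cd72 is the 1 B cell gene whose WT value is the highest of its row.

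The difference reached 2-fold for few genes. Past a log2 ratio of 1, Igj and Mzb1 were the 2 genes higher in Tle4cKO than in WT, where 0.162% of all genes tested were that much higher and 0.486% that much lower. None of the 29 was 2-fold higher or lower in the library labelled Tle3cKO than in WT, where 0.216% of all genes were higher and 0.207% lower by that much. Igj and Mzb1 again were the 2 genes past 2-fold in Tle4cKO against the library labelled Tle3cKO, where 0.207% of all genes were higher and 0.522% lower by that much. At 1.5-fold the counts were 11, 7 and 5 of 29 genes in the same order of comparisons, beside 1.21%, 1.59% and 0.891% of all genes. Of the 29 genes, 26 reached a mean of 1 FPKM, and the plasma cell genes Tnfrsf17 and Fkbp11 did so only through their values in Tle4cKO. The B cell gene Vpreb3 did so only through its value in the library labelled Tle3cKO. Tnfrsf13b, Fcrl5 and Eaf2 did not reach it. In bulk RNA, more cells of a type and more RNA per cell cannot be told apart.

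The B cell receptor genes were lowest in WT. Cd79a, which encodes a signalling chain of the receptor (ENSMUSG00000003379, chromosome 7, 24897381 to 24902197, mm10), was at 29.9 FPKM in Tle4cKO, 33.9 in the library labelled Tle3cKO and 19.5 in WT. Its partner Cd79b (chromosome 11, 106311341 to 106314762) was at 17.1, 13.7 and 11.8 FPKM in the same order of libraries. The log2 ratios to WT were 0.59 and 0.77 for Cd79a and 0.50 and 0.20 for Cd79b, with Tle4cKO first. The ratio of Cd79a to Cd79b was 1.75 in Tle4cKO, 2.48 in the library labelled Tle3cKO and 1.66 in WT, so the paired chains did not keep one proportion. Ms4a1, which encodes the B cell surface protein CD20, was at 6.86, 6.80 and 4.41 FPKM, nearly equal in the first pair and lower in WT. The Ms4a1 row overlaps the rows of 4930526L06Rik and Ms4a5, so its reads may be shared.

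The coreceptors and other surface genes were mixed. Cd22, an inhibitory lectin of B cells whose promoter is shown above, was at 9.42 FPKM in Tle4cKO, 9.56 in the library labelled Tle3cKO and 8.09 in WT. Cd72, an inhibitory receptor also known in macrophages, went the other way, with 82.0, 75.5 and 88.7 FPKM. Its row overlaps that of Tesk1. Cr2, the complement receptor CD21, was at 1.52, 2.39 and 1.49 FPKM, high only in the library labelled Tle3cKO. Fcer2a, the low-affinity IgE receptor CD23, was high only in Tle4cKO, at 3.41, 1.97 and 1.99 FPKM. Ly6d, a small GPI-linked protein of early B cells that epithelium also makes, likewise stood out in Tle4cKO, at 13.0, 8.13 and 7.70 FPKM.

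Genes for follicle homing and survival had similar levels in both the Tle4cKO library and the one labelled Tle3cKO. Cxcr5, the receptor for the follicle chemokine CXCL13, was at 5.49 FPKM in Tle4cKO, 5.51 in the library labelled Tle3cKO and 3.25 in WT. Tnfrsf13c, which encodes the BAFF receptor needed for B cell survival, was at 3.10, 3.49 and 2.07 FPKM. Fcrla, an intracellular Fc receptor-like protein, was at 5.79, 6.58 and 4.27 FPKM. In all of these WT was the lowest. Vpreb3, which binds immunoglobulin chains inside B cells, was at 1.05, 2.28 and 0.732 FPKM. With a pseudocount of 1, its log2 ratio of 0.92 in the library labelled Tle3cKO against WT was the largest of the 29 genes. That rank depends on the pseudocount. Vpreb3 lies 47.1 kb from the plasma cell gene Derl3 on chromosome 10, the only pair of these genes within 100 kb of each other. Derl3 was highest in Tle4cKO where Vpreb3 was highest in the library labelled Tle3cKO.

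Among signalling genes, Blk, a Src-family kinase of B cells, was at 7.95 FPKM in Tle4cKO, 5.72 in the library labelled Tle3cKO and 4.11 in WT. Bank1, a scaffold in receptor signalling, was at 2.997, 4.97 and 2.86 FPKM, so that these signalling partners were highest in different libraries. Blnk, an adaptor that macrophages also express, was at 69.3, 72.2 and 62.6 FPKM. Blnk and Cd72 together made up 151 of the 269.9 FPKM that the 18 B cell genes summed to in Tle4cKO, 148 of 266 in the library labelled Tle3cKO and 151 of 231 in WT. Their joint sum was 0.9998 times WT in Tle4cKO and 0.976 times WT in the library labelled Tle3cKO. The 10 B cell genes with little known use outside the lineage summed to 86.1, 89.3 and 59.4 FPKM, which is 1.45 and 1.504 times WT. All 10 were higher than WT in each of these comparisons, which share the WT library, where 49.4% and 47.6% of all genes tested were.

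The transcription factors of B cells were lowest in WT. Pax5, which holds B cell identity and is silenced in plasma cells, and whose row overlaps that of 5730488B01Rik, was at 2.06 FPKM in Tle4cKO, 2.34 in the library labelled Tle3cKO and 1.55 in WT. Ebf1, which specifies the B lineage and is also used in stroma and fat, was at 2.60, 3.77 and 2.19 FPKM. Spib, an ETS factor of B cells, plasmacytoid dendritic cells and M cells, was at 6.47, 6.76 and 3.65 FPKM. All were highest in the library labelled Tle3cKO, by a small margin for Spib. Over the 18 B cell genes the median log2 ratio was 0.39 in Tle4cKO against WT, 0.48 in the library labelled Tle3cKO against WT and -0.06 in Tle4cKO against the library labelled Tle3cKO. Between Tle4cKO and the library labelled Tle3cKO, 6 of the 18 were higher and 12 lower, where 52.4% of all genes tested were higher. Their values ran from -0.68 for Vpreb3 to 0.62 for Ly6d.

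Genes used by both stages were mixed. Pou2af1, the coactivator OBF-1 that B cells need to form germinal centres, was at 14.9 FPKM in Tle4cKO, 12.8 in the library labelled Tle3cKO and 7.84 in WT. Tnfrsf13b, which encodes TACI, a receptor for BAFF and APRIL, was at 1.10, 1.15 and 0.334 FPKM, a low gene whose WT value was the lowest of all 29. Eaf2, an elongation factor partner, was at 1.63, 0.617 and 0.593 FPKM, high only in Tle4cKO, and its row overlaps that of Iqcb1. Cd38, a NAD-consuming surface enzyme that macrophages also carry, was at 16.7, 19.5 and 16.8 FPKM. Fcrl5, an Fc receptor-like protein, is given above and was highest in the library labelled Tle3cKO. The median log2 ratio of the 5 was 0.65 in Tle4cKO against WT, 0.28 in the library labelled Tle3cKO against WT and -0.03 in Tle4cKO against the library labelled Tle3cKO.

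Plasma cell genes were higher in Tle4cKO than in either other library, except that Sdc1 was lower than in the library labelled Tle3cKO when libraries were scaled to equal totals or equal macrophage sums. Igj, which encodes the J chain that joins IgA and IgM (Jchain in newer annotation, ENSMUSG00000067149, chromosome 5, 88519809 to 88527891), was at 192 FPKM in Tle4cKO, 57.9 in the library labelled Tle3cKO and 46.9 in WT. Its log2 ratio of 2.01 in Tle4cKO against WT ranked 9th among the 11114 genes tested, and its ratio of 1.71 to the library labelled Tle3cKO ranked 11th. Mzb1, an endoplasmic reticulum chaperone for immunoglobulin, was at 18.2, 6.58 and 6.48 FPKM, with log2 ratios of 1.36 to WT, ranked 13th, and 1.34 to the library labelled Tle3cKO, ranked 15th. Tnfrsf17, which encodes BCMA, the receptor that keeps plasma cells alive, was at 2.0998, 0.845 and 0.705 FPKM. For these genes the library labelled Tle3cKO lay nearer to WT than Tle4cKO did, with log2 ratios of 0.30 for Igj, 0.02 for Mzb1 and 0.11 for Tnfrsf17. For Igj, the counting intervals given below still lay apart in that comparison.

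The other plasma cell genes differed less. Derl3, which helps to remove misfolded proteins from the endoplasmic reticulum and whose promoter holds the stress element shown above, was at 7.87 FPKM in Tle4cKO, 5.81 in the library labelled Tle3cKO and 5.44 in WT. Fkbp11, a prolyl isomerase of secretory cells, was at 1.15, 0.965 and 0.938 FPKM. Sdc1, the plasma cell marker syndecan-1 that epithelial cells and macrophages also make, was at 62.3, 60.1 and 42.7 FPKM, high in both the Tle4cKO library and the one labelled Tle3cKO. The median log2 ratio of the 6 plasma cell genes was 0.70 in Tle4cKO against WT, 0.10 in the library labelled Tle3cKO against WT and 0.57 between Tle4cKO and the library labelled Tle3cKO. In each comparison 6 of 6 were higher, but in the second by 0.02 to 0.49. Of all genes tested, 49.4%, 47.6% and 52.4% were higher. Tle4cKO enters the first comparison and the third, and WT the first and the second.

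**Figure D2:**
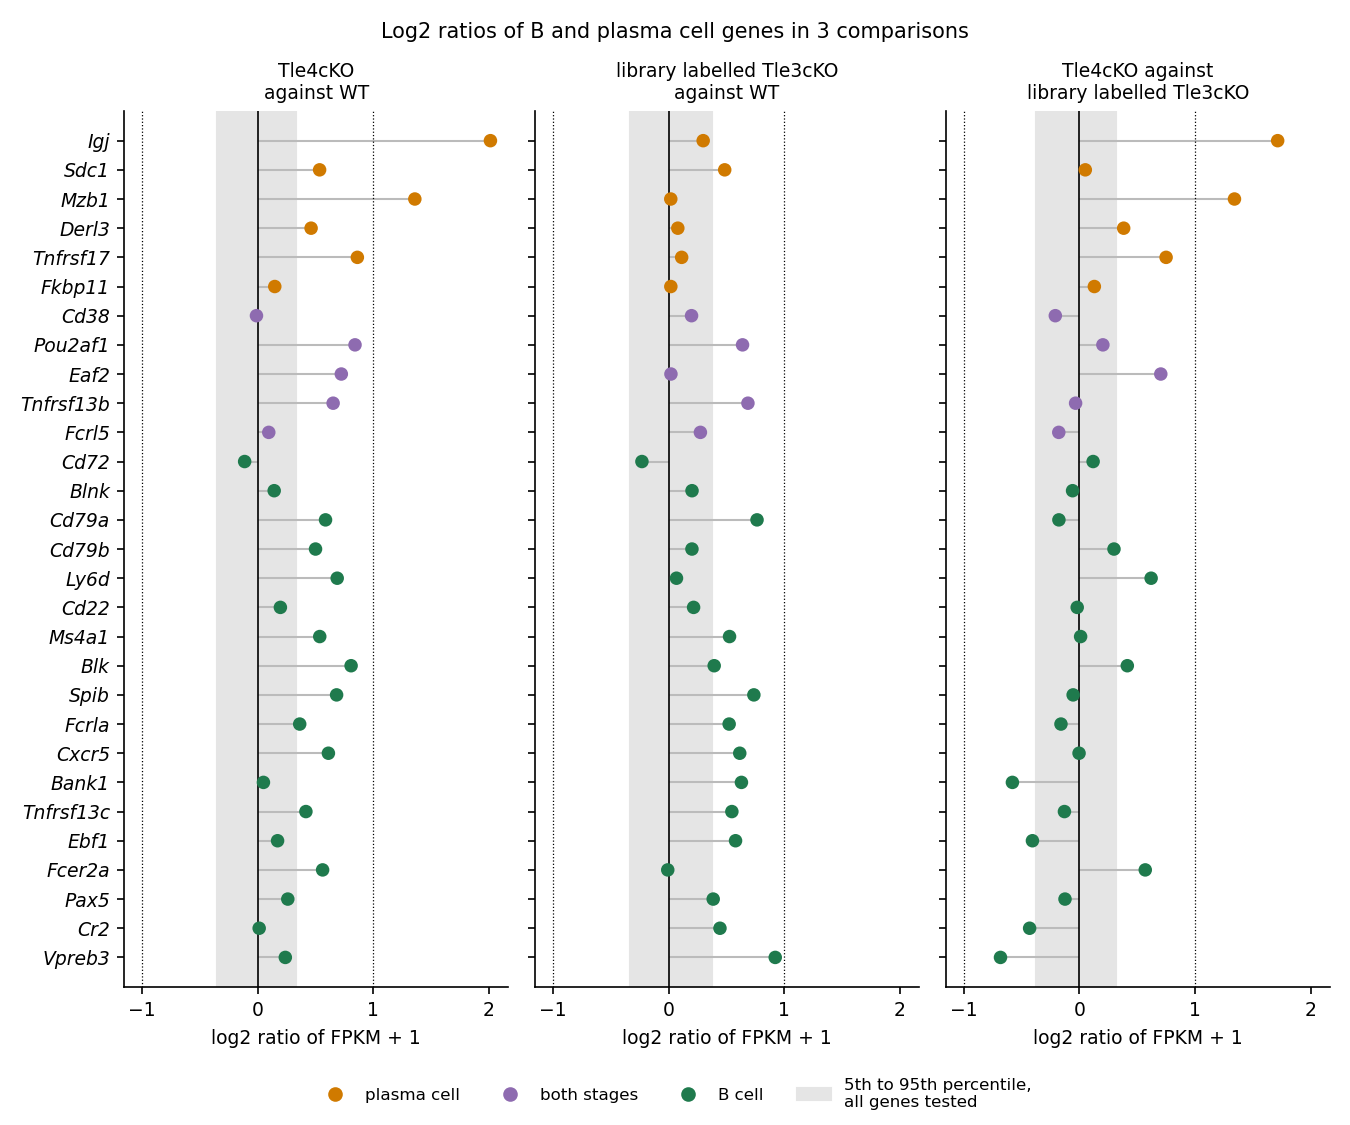
Log2 ratio of FPKM + 1 for each gene in the 3 comparisons, coloured by stage, over a grey band from the 5th to the 95th percentile of the 11114 genes tested and dotted lines at 2-fold. Above the band lie 10 of 18 B cell and 5 of 6 plasma cell genes in Tle4cKO against WT, and 12 of 18 and 1 of 6 in the library labelled Tle3cKO against WT.

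Setting plasma cell genes against B cell genes within a library removes the scaling between libraries. The sum over the 6 plasma cell genes was 1.05 times the sum over the 18 B cell genes in Tle4cKO, 0.498 times in the library labelled Tle3cKO and 0.446 times in WT. Igj decided most of this. Without it the ratios were 0.339 in Tle4cKO, 0.280 in the library labelled Tle3cKO and 0.243 in WT. The plasma cell sums without it were 91.6, 74.3 and 56.2 FPKM, of which Sdc1 alone gave 62.3, 60.1 and 42.7. Most of each sum was thus a gene that epithelial cells and macrophages also make. In the B cell sums, Blnk and Cd72, also known in macrophages, made up more than the other 16 genes in each library. Without Blnk and Cd72 the B cell sums were 118.7, 117.9 and 79.7 FPKM in the same order. Against those sums, plasma cell genes without Igj would give the highest ratio in Tle4cKO and the lowest in the library labelled Tle3cKO. Igj over Cd79a was 6.44 in Tle4cKO, 1.71 in the library labelled Tle3cKO and 2.40 in WT. Mzb1 over Cd79a was 0.609, 0.194 and 0.332 in the same order, again highest in Tle4cKO and lowest in the library labelled Tle3cKO. The defining genes alone are 2 of plasma cells, Igj and Tnfrsf17, and 10 of B cells. Their ratio was 2.26 in Tle4cKO, 0.658 in the library labelled Tle3cKO and 0.801 in WT. Igj gave 192 of the plasma cell sum of 194 FPKM in Tle4cKO. In the library labelled Tle3cKO it gave 57.9 of 58.8 and in WT 46.9 of 47.6, so this ratio too was mostly Igj. The order of the library labelled Tle3cKO and WT thus depended on the genes summed. Mzb1 over Igj was 0.0946, 0.114 and 0.138. No replicate spread is known for any of these ratios, so whether they differ between genotypes was not tested.

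The counting error could be estimated for the 11 genes with 1 annotated transcript. Igj corresponded to about 4570 fragments in Tle4cKO, 1142 in the library labelled Tle3cKO and 947 in WT, and the 95% Poisson intervals of its FPKM ran from 187 to 198, from 54.6 to 61.4 and from 43.9 to 49.97. Mzb1 rested on about 244, 77 and 77 fragments, with intervals of 16.0 to 20.6, 5.19 to 8.23 and 5.11 to 8.10 FPKM. Tnfrsf17 rested on about 24, 9 and 7 fragments, and its intervals of 1.35 to 3.12 FPKM in Tle4cKO, 0.386 to 1.60 in the library labelled Tle3cKO and 0.283 to 1.45 in WT overlapped. Fkbp11 had about 11, 9 and 8 fragments, so no difference was detectable at this depth. The intervals lay apart for 8 of 11 genes in Tle4cKO against WT, for 7 of 11 in the library labelled Tle3cKO against WT and for 5 of 11 between Tle4cKO and the library labelled Tle3cKO. The background was 4125 genes with 1 transcript, of at least 700 bases, and a mean of at least 1 FPKM. Among these the intervals lay apart for 24%, 23.5% and 24.8%, and apart with the first library higher for 11.7%, 11.2% and 12.7%. The 11 genes were the higher of the pair wherever their intervals lay apart, except Cd38 between Tle4cKO and the library labelled Tle3cKO. They cover counting error only and say nothing of the spread between mice, and fragments that are copies of one molecule were counted as separate.

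**Figure D3:**
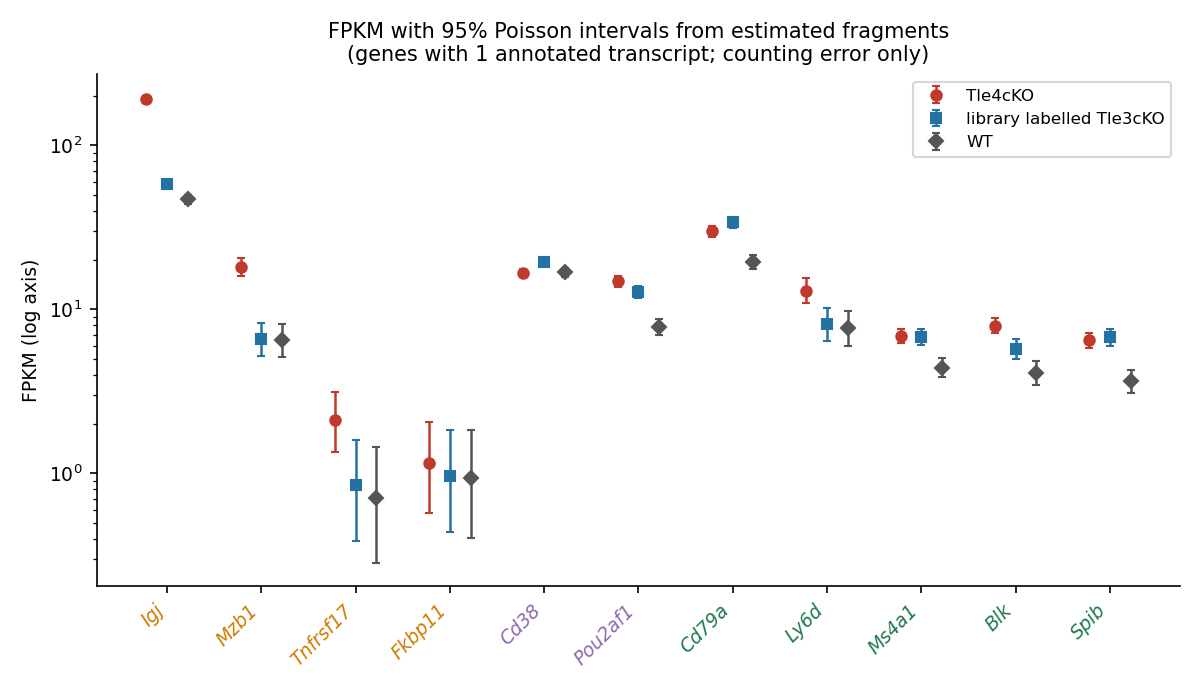
FPKM on a log axis of the 11 genes with 1 annotated transcript, with bars for 95% Poisson intervals from estimated fragments. The intervals of Igj and Mzb1 in Tle4cKO lie above those of the other libraries, and those of Tnfrsf17 and Fkbp11 overlap in every pair.

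Further genes of the same pathways had medians nearer to 0. For counts of genes higher here and below, the shares of all genes tested were 49.4%, 47.6% and 52.4% in the 3 comparisons. Those shares cover genes averaging 1 FPKM or more, a mean that not all genes of the lists below reach. The 22 genes of B cell receptor signalling, most of which macrophages also use, had median log2 ratios of 0.02 in Tle4cKO against WT, -0.09 in the library labelled Tle3cKO against WT and 0.11 in Tle4cKO against the library labelled Tle3cKO, with 14, 5 and 17 higher and 0 past 2-fold either way. Rasgrp3, a Ras activator in that list, was at 3.10 FPKM in Tle4cKO, 2.67 in the library labelled Tle3cKO and 1.64 in WT. Of 28 other genes of B cells, 15, 21 and 15 were higher, with medians of 0.07, 0.10 and 0.02 and 0 past 2-fold. Ccr6, a receptor that guides B cells to follicles below the epithelium, was at 9.17, 10.1 and 5.90 FPKM. Cd37, a leukocyte tetraspanin, was at 42.6, 47.8 and 30.3 FPKM, and Mef2c at 9.36, 7.78 and 5.63. All of these were lowest in WT.

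Of 20 other genes of plasma cells and protein secretion, 13, 11 and 13 were higher, with medians of 0.09, 0.0055 and 0.07 and 0 past 2-fold. Irf4, a factor of plasma cells that macrophages also express, was at 15.5 FPKM in Tle4cKO, 18.1 in the library labelled Tle3cKO and 13.2 in WT. Tram2, which acts at the translocon, was at 3.87, 2.64 and 2.39 FPKM, and Fam46c, a poly(A) polymerase, at 31.2, 24.2 and 33.5. Tram2 thus had the order of the plasma cell genes while Irf4 and Fam46c did not. Of 10 germinal centre genes 5 reached a mean of 1 FPKM, and the medians of all 10 were 0.12, 0.14 and 0.08. In that list S1pr2, which holds B cells in the germinal centre, was at 8.62, 7.62 and 7.20 FPKM, the death receptor gene Fas at 10.6, 14.2 and 11.9, and Ung, which repairs uracil left by AID, at 1.55, 1.74 and 1.44. The 12 immunoglobulin constant region genes listed had no row, so antibody classes were not analysed here.

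Signals that B lineage cells receive were compared too. In a list of 5 ligands and cytokines the medians were -0.15, -0.21 and 0.16, with 0, 1 and 3 higher. Tgfb1, a signal for IgA switching, was at 286 FPKM in Tle4cKO, 248 in the library labelled Tle3cKO and 331 in WT. Il6 was at 20.2, 16.8 and 22.5 FPKM and Il10 at 61.1, 89.95 and 66.3. In the library labelled Tle3cKO against WT their log2 ratios were -0.42 for Tgfb1, -0.40 for Il6 and 0.43 for Il10. These lay outside the range of -0.33 to 0.37 between the 5th and the 95th percentile of all genes. In Tle4cKO against WT the ratios of the same genes were -0.21, -0.15 and -0.12, inside the range of -0.35 to 0.33 of that comparison. Of 13 homing and IgA transport genes, 8, 6 and 6 were higher, with medians of 0.06, -0.05 and -0.02. S1pr1, which lets lymphocytes leave tissue, was at 10.8, 13.7 and 8.26 FPKM, in the order of most B cell genes. Cxcl13 was at 2.56, 3.52 and 4.30 FPKM, and Madcam1, a vascular address for gut homing, at 0.744, 1.95 and 1.80, both lowest in Tle4cKO. The 12 proliferation genes had medians of 0.11, 0.02 and 0.11, with Cdc20 at 2.54, 1.74 and 1.01 FPKM, Cdk1 at 1.84, 1.40 and 1.22 and Birc5 at 2.99, 3.68 and 3.92.

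Markers of other cell types differed between the libraries as well. The 24 colonic epithelial genes summed to 52.0 FPKM in Tle4cKO, 11.2 in the library labelled Tle3cKO and 5.73 in WT. In Tle4cKO 20 of 24 were higher than in WT and 19 of 24 than in the library labelled Tle3cKO. Only 6 of the 24 reached a mean of 1 FPKM, so most of these counts rest on very low values. The order of libraries in the epithelial sums was that of Igj. Epcam, a surface protein of all gut epithelium, was at 3.14, 2.02 and 1.195 FPKM, Muc2, the goblet cell mucin, at 2.996, 0.256 and 0.128, and Vil1 at 0.596, 0.483 and 0.235. The secretory genes Agr2 and Spink4 were at 8.10, 0.971 and 0.468 FPKM and at 18.6, 0.560 and listed at 0, and Krt8 was at 4.90, 0.337 and 0.150. Krt20, of the surface epithelium, was at 0.122, 0.0302 and listed at 0. The 6 enteric glial genes ran the other way, with sums of 21.4, 55.5 and 54.4 FPKM and 6 of 6 lower in Tle4cKO than in WT. Sox10, the glial factor, was at 0.253, 1.17 and 1.11 FPKM. Gfap was at 3.82, 9.34 and 8.92 FPKM and Scn7a at 5.29, 15.3 and 16.0. The part of these cell types in the plasma cell values was not tested.

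T, NK and innate lymphoid genes were compared because follicles hold T cells too. The 25 genes summed to 428 FPKM in Tle4cKO, 453 in the library labelled Tle3cKO and 436 in WT. Il7r made up 332, 342 and 337 FPKM of these sums and Cd4 62.5, 72.8 and 71.8, so the sums say little of the other genes. In the 3 comparisons 16, 18 and 16 of 25 were higher, and 10 of the 25 reached a mean of 1 FPKM. Cd3e, a chain of the T cell receptor complex, was at 1.70, 1.55 and 0.401 FPKM, Cd3d at 1.26, 1.07 and 0.630, and Cd3g at 0.956, 0.844 and 0.748. All were lowest in WT, as were most B cell genes. Cd28, a T cell costimulatory receptor, was at 10.8, 14.1 and 9.72 FPKM, while the NK marker Ncr1 was at 0.0829, 0.0521 and 0.1004 FPKM. The part of T cells in the B cell values was not tested.

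Plasmacytoid dendritic cells use Spib and Mzb1 as well. Their 9 genes summed to 212, 178 and 205 FPKM, with 2, 3 and 7 of 9 higher. Their defining marker Siglech was at 6.30 FPKM in Tle4cKO, 7.69 in the library labelled Tle3cKO and 7.10 in WT. Irf8 was at 148, 119 and 136 FPKM, Runx2 at 24.4, 19.9 and 25.6, and Il3ra at 18.5, 17.9 and 21.9. Klk1, named after its values were seen, was at 2.03 and 0.305 FPKM and listed at 0 in WT. The part of these cells in the Mzb1 and Spib values was not tested. The 15 stromal and endothelial genes summed to 297, 312 and 265 FPKM, with 11, 11 and 5 of 15 higher. Col1a1, a fibroblast collagen, was at 27.5, 26.1 and 26.2 FPKM and Pdgfra at 3.40, 3.70 and 3.56, while smooth muscle Myh11 was at 4.47, 5.82 and 3.35 and endothelial Pecam1 at 22.4, 18.8 and 24.9. Tagln was at 18.2, 23.5 and 12.7 FPKM, Des at 1.78, 2.80 and 1.23 and Cdh5 at 2.30, 2.99 and 1.31, the order of the B cell genes that peaked in the library labelled Tle3cKO.

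Of 11 granulocyte and mast cell genes with a row, which summed to 199, 199 and 194 FPKM, 4, 6 and 3 were higher. Siglec5, the row for Siglec-F, against which the sort selected, was at 2.07, 2.48 and 2.90 FPKM, and the mast cell gene Cpa3 at 0.183, 0.115 and 0.111. Mcpt1 was at 0.509, 0.894 and 2.03 FPKM, Retnlg at 2.05, 4.55 and 4.80, and Kit at 24.4, 19.5 and 18.6. Of the macrophage genes 4, 5 and 6 of 12 were higher. Csf1r was at 387, 406 and 459 FPKM, the F4/80 gene Emr1 at 147, 143 and 150.4, and C1qb at 1309, 1191 and 1443. Mertk was at 6.17, 7.65 and 4.46 FPKM and Cx3cr1 at 11.4, 7.64 and 8.35.

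**Figure D4:**
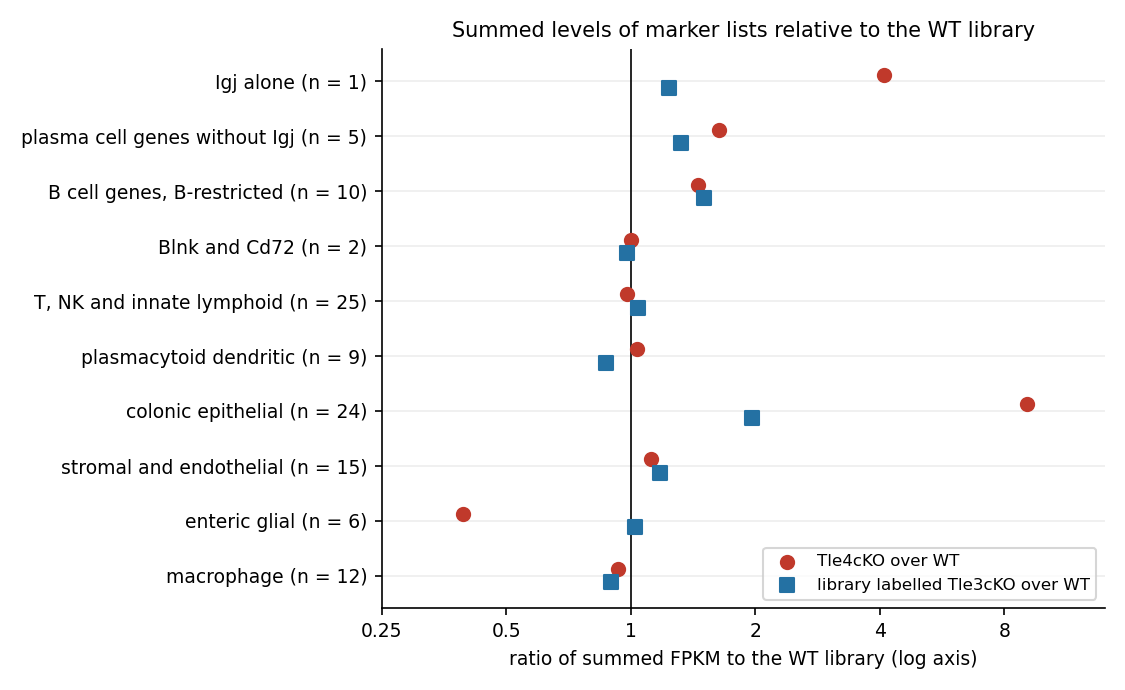
Summed FPKM of marker lists as a ratio to the WT library on a log axis, with circles for Tle4cKO and squares for the library labelled Tle3cKO. The sum of T, NK and innate lymphoid genes is mostly Il7r and Cd4. Igj lies at 4.10 and 1.24, the 10 B-restricted genes at 1.45 and 1.504, the epithelial list at 9.08 and 1.96 and the glial list at 0.393 and 1.02.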

How the data were processed

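RNA was taken with TRIzol from sorted cells pooled by genotype, and a company prepared the libraries, per the labels' protocols. The authors deposited FPKM per gene in 1 table per library, per the file headers. TopHat2 2.1.0, Cufflinks 2.2.1 and mm10 are named in the submitters' processing notes, without the part each played. Cufflinks can share reads out among overlapping transcripts, and no source used here gives strandedness, so overlapping rows are uncertain.

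The values are not counts and each genotype has 1 library, so no test was run. Log2 ratios used FPKM plus 1. All 29 members were used without a filter, beside 11114 genes that averaged 1 FPKM or more. Members and lists were chosen with earlier results of these data known. Named genes are the members, the targeted genes and, from each of 15 lists, defining markers and up to 3 genes with the largest differences from WT. Some genes that this rule takes are not reported here. Ccr10, Pigr, Ccl28 and Klk1 were named after their values were seen, and Il7r and Cd4 for their part in a sum. Identifiers are from GENCODE M21 (mm10), which placed 29 of 29 members over their rows, with Igj found as Jchain.

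Depth was estimated from genes with 1 transcript, where FPKM times effective length steps by a constant per fragment. Of low values 77.5%, 74.3% and 78.8% lay within 0.25 (log2) of 1 or 2 fragments in Tle4cKO, the library labelled Tle3cKO and WT. The steps were tested on simulated data. Alternatives were pseudocounts of 0.1 and 5, filters at 1 and 5 FPKM, 4 scalings, thresholds of 1.5-fold and 3-fold, and other groupings of members. Python 3.11.15, numpy 2.4.6, pandas 2.3.3, scipy 1.17.1 and matplotlib 3.10.9 were used.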

Additional observations from a re-analysis of the deposited data

How the results depend on the processing

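A median was taken to move when it shifted by over 0.1 (log2), and a count or ratio when it changed by over 1.5 times. Of 174 values under other settings for these medians, counts and ratios, 48 moved. The sign changed for 3 of the 174, all of the median of the 29 genes in Tle4cKO against the library labelled Tle3cKO, which was -0.0036 and became 0.0032 and 0.084 with means of at least 1 and 5 FPKM and 0.0095 with equal medians. With a pseudocount of 0.1 the medians in Tle4cKO against WT were 0.50 for B cell genes, 0.998 for plasma cell genes and 0.91 for genes of both stages, and with one of 5 they were 0.21, 0.41 and 0.19, and 0.25 for all 29. In the library labelled Tle3cKO against WT they were 0.61 for B cell genes, 0.67 for both stages and 0.49 for all 29 with 0.1, and 0.25, 0.16 and 0.19 with 5. In Tle4cKO against the library labelled Tle3cKO the plasma cell median was 0.83 with 0.1 and 0.27 with 5. With genes at a mean of at least 5 FPKM only, Tle4cKO against WT gave 0.52 for B cell and 0.95 for plasma cell genes, the library labelled Tle3cKO against WT 0.31 for B cell genes and 0.26 for all, and Tle4cKO against the library labelled Tle3cKO 0.86 for plasma cell genes. Filters at 1 and at 5 FPKM both left 2 genes of both stages, with medians of 0.42 in Tle4cKO and 0.42 in the library labelled Tle3cKO, each against WT (0.416 and 0.4195). Above 5 FPKM 14 of 16 genes were higher in Tle4cKO than in WT and 15 of 16 in the library labelled Tle3cKO than in WT, where fewer genes were counted. The share of all genes above 5 FPKM that were higher was not computed.

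Scaling to equal sums of the macrophage list moved the median of all genes to 0.13 in the library labelled Tle3cKO against WT. There the medians were 0.60 for B cell, 0.20 for plasma cell and 0.49 for all genes, and 1 gene was past 2-fold, beside 0.45% of all genes. Under all 4 scalings 27 of 29 genes were higher in each comparison with WT. Of all genes tested, 50.2% to 70.3% were higher in Tle4cKO and 45.2% to 78.8% in the library labelled Tle3cKO, depending on the scaling. The sign of Cd38 in Tle4cKO and of Fcer2a in the library labelled Tle3cKO also depended on it. So did those of Ms4a1, Cxcr5 and Sdc1 in the direct comparison. Restricting classes to their defining genes gave plasma cell medians, over 2 genes, Igj and Tnfrsf17, of 1.44, 0.21 and 1.23 in the 3 comparisons. Counting genes of both stages as plasma cell genes gave 0.20 in the library labelled Tle3cKO against WT and 0.20 in the direct comparison (0.199 and 0.202). Genes past 2-fold were 5, 2 and 4 of 29 with a pseudocount of 0.1, beside 0.495%, 0.81% and 0.45% of all genes averaging 1 FPKM or more, a mean that 3 of the 29 do not reach. At 1.5-fold they were 11, 7 and 5, beside 1.21%, 1.59% and 0.891% of all genes. At 3-fold they were 1 gene, Igj, in each comparison with Tle4cKO. Beside it, 0.099% of all genes were that much higher against WT and 0.108% against the library labelled Tle3cKO. The plasma to B cell ratio without Igj was 0.339, 0.280 and 0.243. Over defining genes, whose plasma cell sum is mostly Igj, it was 2.26 in Tle4cKO, 0.658 in the library labelled Tle3cKO and 0.801 in WT. There the library labelled Tle3cKO lay below WT and not above it. The causes of these shifts were not tested. No paired analysis was possible because each genotype has 1 library, and for the same reason no replicate could be left out.

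Low genes set the limit of depth: Tnfrsf17 and Fkbp11 rested on 7 to 24 estimated fragments per library. The fragment estimates depend on an effective length, the transcript length less a correction fitted in each library. That correction was 270 bases in Tle4cKO, 190 in the library labelled Tle3cKO and 210 in WT.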

Other observations

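Genes tied to IgA plasma cells but not among the 29 were also measured. Ccr10, the chemokine receptor by which IgA plasma cells enter the colon, was at 1.63 FPKM in Tle4cKO, 0.222 in the library labelled Tle3cKO and 0.518 in WT. Pigr, the epithelial receptor that carries dimeric IgA into the lumen, was at 1.34 FPKM in Tle4cKO, 0.192 in the library labelled Tle3cKO and 0.0143 in WT. Both were highest in Tle4cKO, as Igj was. Ccl28, an epithelial ligand of that receptor, was lowest in Tle4cKO, at 0.0331, 0.0835 and 0.140 FPKM. These genes were picked after their values were seen, all are low in at least 1 library, and no replicate bears on them.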
